A study of Mus musculus with 36 samples.

Results

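The genes described here are 5 genes that mark the interstitial cells of Cajal or act on them: Kit, Ano1, Gpr20, Etv1 and Kitl. They were taken by gene symbol from tables with 23361 distinct gene names, and all 5 were found, with a measured level in each of the 36 libraries. In mm10, with positions counted from 1, Kit lies at chr5:75574987-75656721 on the plus strand, Ano1 at chr7:144588549-144738592 on the minus strand, Gpr20 at chr15:73694607-73707505 on the minus strand, Etv1 at chr12:38780258-38868215 on the plus strand and Kitl at chr10:100015824-100100412 on the plus strand. All are annotated as protein coding, and a value here covers the whole gene.

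Polyadenylated RNA of gut from C57BL/6J mouse embryos was sequenced at 3 stages, E10.5, then E12.5 and finally E14.5. At each stage there were 3 libraries of females labelled Ret null, 3 of males labelled Ret null, 3 of wild-type females and 3 of wild-type males. Levels are given as FPKM, in which fragment counts are divided by transcript length and by depth, so that genes can be set side by side. The labels name no Ret allele, do not say how it was made, and do not say whether replicates are separate embryos. A p-value here thus measures only how far these samples scatter, which may be technical.

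Interstitial cells of Cajal are the pacemakers of the gut wall. They arise from the mesenchyme that also gives rise to smooth muscle, not from the neural crest, and they set the slow electrical waves that pace contraction and pass on signals from enteric neurons. Their survival depends on the receptor KIT, and its ligand is made by neighbouring neurons and muscle. Ret encodes the receptor through which GDNF acts on crest cells that enter the gut, and gut without RET lacks most of its enteric neurons.

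In gut labelled Ret null, Kit, Ano1 and Gpr20 were higher than in wild type at E10.5, at 1.45, 1.53 and 1.87 times wild type on the FPKM + 1 scale, and at E14.5, at 1.36, 1.29 and 1.52 times. Kitl was lower at E10.5, at 0.702 times wild type, and Etv1 did not pass the test at any stage. No gene of the 5 passed at E12.5. At E14.5 the rises of Kit and Ano1 also passed without the libraries that held Ret against their label, and at E10.5 no change did. The E14.5 samples labelled Ret null that held Ret also had higher means than wild type. These were 17.2 against 13.7 FPKM for Kit, 17.0 against 13.7 FPKM for Ano1 and 5.425 against 3.54 FPKM for Gpr20. These differences were not tested.

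Labels and RNA did not match in every library, which bears on each result below. Ret stood at 0.0111 to 0.0587 FPKM in 11 libraries labelled Ret null, at 4.74 to 6.49 FPKM in the other 7 labelled Ret null and at 2.11 to 13.3 FPKM in the 18 wild-type libraries. The 7 that held Ret are the 3 E10.5 females, E12.5 male 2, E14.5 females 1 and 3 and E14.5 male 1. In 4 libraries the RNA of sex-linked genes contradicted the labelled sex. E10.5 female 3 labelled Ret null had 13.5 FPKM of the Y-linked gene Ddx3y, E10.5 male 1 labelled Ret null had 66.1 FPKM of Xist, the RNA of the inactive X chromosome, and 0 of Ddx3y, and E12.5 wild-type females 1 and 2 had 4.91 and 4.98 FPKM of Ddx3y beside Xist. In 4 replicate pairs the 2 libraries differed by no more than counting noise; each pair was averaged and counted once, which left 32 samples. At E10.5 these were females 1 and 2 of both genotypes and males 3 and 4 of wild type, and at E12.5 they were females 1 and 2 of wild type. As a check of the tissue, 7 epithelial genes summed to 95.6 to 772 FPKM over all samples. Depth implied by the deposited intervals was 4.86 to 40.9 M fragments a library (M stands for mega). At the members it gave a counting error of 1.21 to 4.78% for Kit and 3.11 to 16.7% for Gpr20, the lowest of the 5 in level.

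Across the 36 libraries Ano1 had a median of 17.6 FPKM and Kit one of 16.3 FPKM, Kitl one of 9.06 FPKM, Etv1 one of 7.56 FPKM and Gpr20 one of 6.38 FPKM. Kit ranged from 8.70 to 27.9 FPKM and Ano1 from 8.67 to 26.9 FPKM, and for both the lowest library was E10.5 wild-type female 3 and the highest E12.5 wild-type male 2. Gpr20 had the widest range, 1.65 to 11.9 FPKM, a 7.20-fold span. No member was absent at any stage, so RNA of all 5 genes was already present in gut at E10.5.

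**Figure D1:**
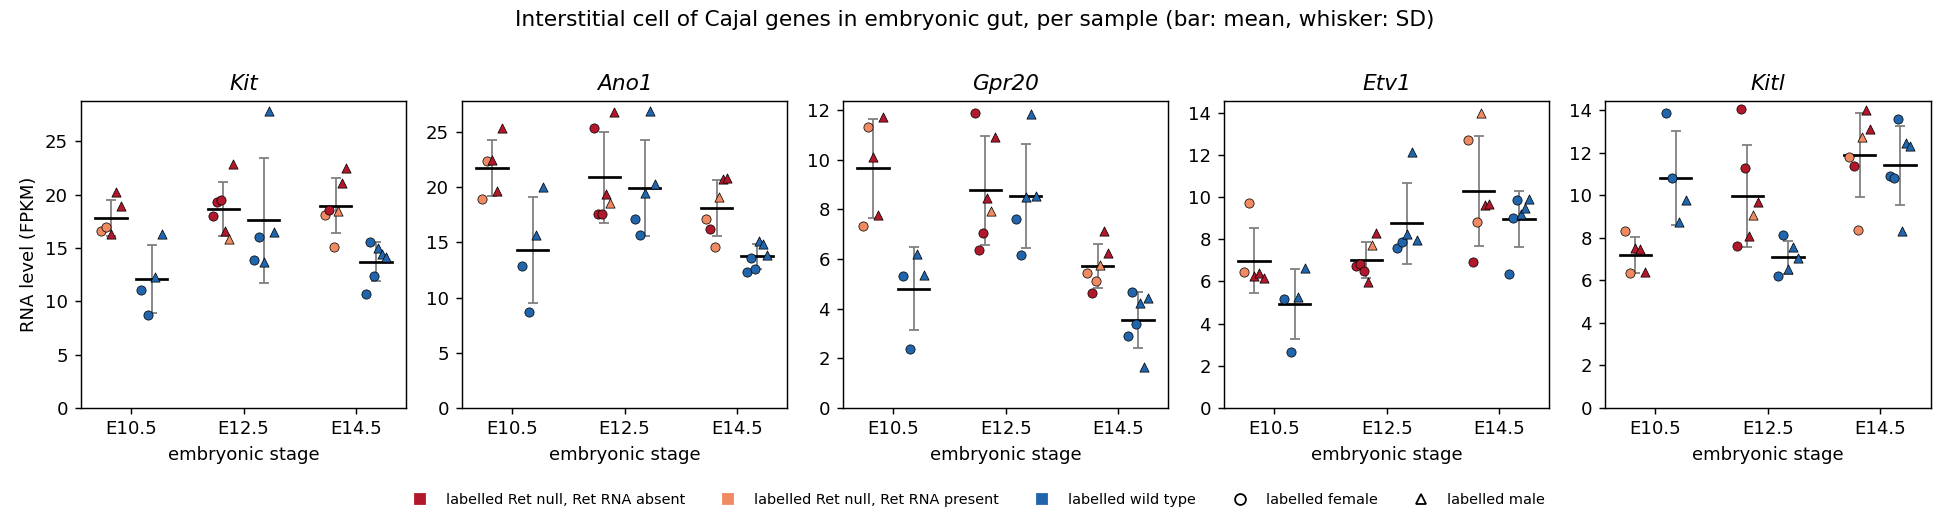
RNA level (FPKM, linear axis from 0) of Kit, Ano1, Gpr20, Etv1 and Kitl at each stage, 1 point per sample, with samples labelled Ret null on the left (dark red where Ret RNA was absent, orange where it was present) and wild type on the right (blue), circles for females and triangles for males; bars are means and whiskers SD. At E10.5 the 5 samples labelled Ret null lie above all 4 wild-type samples in Gpr20 and below all 4 in Kitl, and at E14.5 5 of 6 lie above every wild-type sample in Kit, Ano1 and Gpr20.

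Kit encodes the receptor tyrosine kinase that defines interstitial cells of Cajal and on which they depend. At E10.5 Kit stood at 16.6 and 17.0 FPKM in the females and 16.3, 20.2 and 19.0 FPKM in the males labelled Ret null, against 11.1 and 8.70 FPKM in wild-type females and 12.3 and 16.3 FPKM in wild-type males. The groups overlapped, because wild-type male 5 reached the lowest sample labelled Ret null. Kit rose by 0.54 on the log2 scale (SE 0.11, adjusted p = 0.0281 in limma) in gut labelled Ret null. Log2 changes throughout are of FPKM + 1, which understates the change of low genes.

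At E12.5 Kit was not separated by genotype. Its lowest, median and highest values were 15.9, 18.6 and 22.9 FPKM in the 6 samples labelled Ret null, and the 5 wild-type samples had 13.9, 16.03, 13.7, 27.9 and 16.5 FPKM. The log2 difference was 0.15 (95% interval -0.22 to 0.52, adjusted p = 0.779 in limma), an interval that includes the change seen at E14.5. Wild-type male 2, at 27.9 FPKM, was the highest of all libraries.

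At E14.5 Kit had lowest, median and highest values of 15.1, 18.5 and 22.5 FPKM in the 6 samples labelled Ret null, against 10.7, 14.3 and 15.6 FPKM in the 6 wild-type samples. All but 1 sample labelled Ret null lay above every wild-type sample. Kit rose by 0.44 (SE 0.09, adjusted p = 0.0154 in limma). Split by Ret RNA, the labelled null samples without Ret had 18.6, 21.1 and 22.5 FPKM and those with Ret 18.1, 15.1 and 18.5 FPKM. Without the libraries that held Ret the rise was 0.53 (SE 0.11, adjusted p = 0.0332 in limma). That fit has 3 samples labelled Ret null, of which males 2 and 3 were nearly as close as an averaged pair. Their spread was 1.05 times counting noise, with 1.59% of genes beyond 3 SD, where pairs were averaged at no more than 1%. They were counted as 2 samples, so the p-value may overstate how many separate samples it rests on.

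By mean, Kit stood at 17.8 ± 1.71 FPKM (SD, n = 5) at E10.5, 18.7 ± 2.52 FPKM (SD, n = 6) at E12.5 and 19.0 ± 2.56 FPKM (SD, n = 6) at E14.5 in gut labelled Ret null. Wild-type gut had 12.1 ± 3.19 FPKM (SD, n = 4) at E10.5, 17.6 ± 5.88 FPKM (SD, n = 5) at E12.5 and 13.7 ± 1.82 FPKM (SD, n = 6) at E14.5. From high to low, the 3 stages labelled Ret null came first, then wild type at E12.5, at E14.5 and at E10.5. No neighbouring pair in this order differed by more than the larger of its 2 SDs.

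Ano1 encodes the calcium-activated chloride channel that carries the pacemaker current of these cells. At E10.5 it stood at 18.9 and 22.4 FPKM in females and 22.4, 19.7 and 25.3 FPKM in males labelled Ret null, against 12.8 and 8.67 FPKM in wild-type females and 15.7 and 20.1 FPKM in wild-type males. As with Kit, the groups overlapped only at wild-type male 5. Ano1 rose by 0.61 (SE 0.13, adjusted p = 0.0344 in limma).

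At E12.5 Ano1 had lowest, median and highest values of 17.5, 19.0 and 26.8 FPKM in samples labelled Ret null, against 17.1, 15.7, 19.5, 26.9 and 20.3 FPKM in the 5 wild-type samples, and the groups overlapped fully. The log2 difference was 0.11 (95% interval -0.20 to 0.41, adjusted p = 0.805 in limma). At E14.5 the values were 14.6, 18.1 and 20.8 FPKM in samples labelled Ret null and 12.3, 13.7 and 15.1 FPKM in wild type. Again 5 of 6 samples with the null label stood above every wild-type sample. Those without Ret had 16.2, 20.7 and 20.8 FPKM and those with Ret 17.1, 14.6 and 19.2 FPKM. Ano1 rose by 0.37 at E14.5 (SE 0.05, adjusted p = 0.00819 in limma), and by 0.40 (SE 0.07, adjusted p = 0.0189 in limma) without the libraries that held Ret.

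Over groups, Ano1 averaged 21.8 ± 2.55 FPKM (SD, n = 5) at E10.5, 20.9 ± 4.12 FPKM (SD, n = 6) at E12.5 and 18.1 ± 2.52 FPKM (SD, n = 6) at E14.5 with the Ret null label. In wild type it averaged 14.3 ± 4.79 FPKM (SD, n = 4) at E10.5, 19.9 ± 4.33 FPKM (SD, n = 5) at E12.5 and 13.7 ± 1.13 FPKM (SD, n = 6) at E14.5. The order was the 3 stages labelled Ret null with wild type at E12.5 between the second and the third, then wild type at E10.5 and at E14.5. No neighbouring pair in this order differed by more than the larger of its 2 SDs.

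Kit and Ano1 kept close to each other. The ratio of Ano1 to Kit was 0.871 to 1.43 over the 36 libraries, with a median of 1.11, while the ratio of Gpr20 to Kit ran from 0.114 to 0.665 and that of Kitl to Kit from 0.271 to 1.30. Over the 12 group means of log2(FPKM + 1), Ano1 had a Pearson's r of 0.905 with Kit and 0.906 with Gpr20, Gpr20 had one of 0.729 with Kit and -0.706 with Kitl, and Kitl had one of -0.564 with Ano1. These are descriptions over 12 points that share stages, sexes and, in part, depth.

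**Figure D2:**
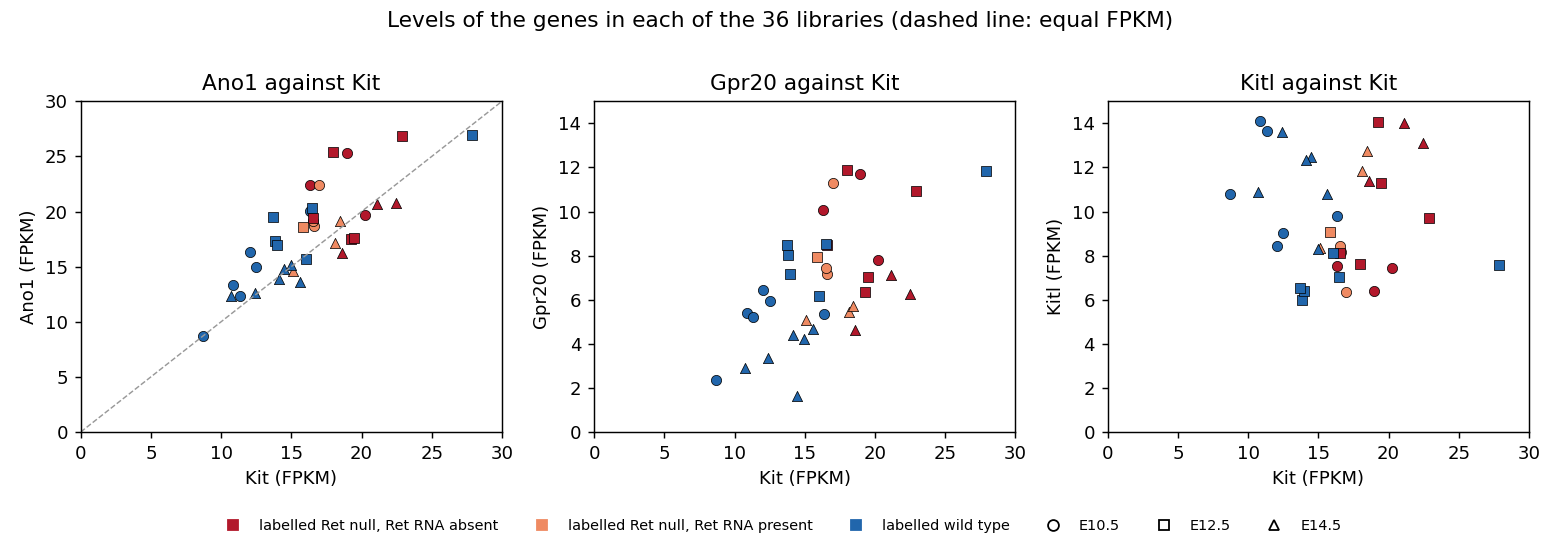
Ano1, Gpr20 and Kitl (vertical axes, FPKM) against Kit (horizontal axis, FPKM) in each of the 36 libraries, coloured by label and Ret RNA and shaped by stage, with a dashed line at equal levels in the Ano1 panel. Ano1 lies near the line of equal levels, mostly on or above it, with ratios between 0.871 and 1.43, whereas Kitl shows no common ratio to Kit, at 0.271 to 1.30.

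Because Kit and Ano1 moved together, the bases just upstream of their annotated starts are shown (RefSeq promoter table, GRCm38.p6), trimmed where another annotated start lies inside the window. Capitals mark GGAA and its reverse complement TTCC, the core letters of sites of ETS factors, the family of ETV1. The Kit stretch is chr5:75574737-75574915 on the plus strand and the Ano1 stretch chr7:144738593-144738823 on the minus strand. In the GENCODE annotation Ano1 starts farther upstream, at chr7:144751974, so the Ano1 stretch lies inside that gene and is not upstream of every annotated start.
Kit: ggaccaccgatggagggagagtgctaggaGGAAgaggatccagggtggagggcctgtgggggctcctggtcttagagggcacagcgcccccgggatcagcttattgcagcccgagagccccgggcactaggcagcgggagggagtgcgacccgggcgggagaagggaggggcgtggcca
Ano1: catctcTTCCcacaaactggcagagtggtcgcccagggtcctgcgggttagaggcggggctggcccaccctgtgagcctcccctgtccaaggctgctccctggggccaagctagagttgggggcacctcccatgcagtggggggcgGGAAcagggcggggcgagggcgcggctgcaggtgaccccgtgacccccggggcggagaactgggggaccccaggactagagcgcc

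In the 250 bases before the RefSeq start, read on both strands, GGAA occurred 1 time at Kit, 2 times at Ano1, 2 times at Etv1 and 3 times at Kitl. For each of these genes a GENCODE start lies inside or upstream of that window. It occurred in 93.4% of 32851 mouse promoters, with a median of 3 matches. The longer form CCGGAA, which holds GGAA, had 1 match at Kitl and 0 at Kit, Ano1 and Etv1, and was present in 12% of promoters. Gpr20 is named only. These matches describe letters, not binding.

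Gpr20 encodes an orphan G protein-coupled receptor found at high level in interstitial cells of Cajal and in the tumours that arise from them. At E10.5 it stood at 7.31 and 11.3 FPKM in females and 10.1, 7.79 and 11.7 FPKM in males labelled Ret null, against 5.32 and 2.36 FPKM in wild-type females and 6.18 and 5.35 FPKM in wild-type males. Every sample labelled Ret null lay above every wild-type sample, as did 5.25% of all genes tested. Gpr20 rose by 0.90 (SE 0.21, adjusted p = 0.0410 in limma), the largest log2 change among the 5 genes at that stage.

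At E12.5 Gpr20 had lowest, median and highest values of 6.34, 8.20 and 11.9 FPKM in samples labelled Ret null, against 7.60, 6.16, 8.50, 11.8 and 8.53 FPKM in wild type, a difference of 0.07 (95% interval -0.29 to 0.43, adjusted p = 0.899 in limma). At E14.5 the values were 4.62, 5.59 and 7.11 FPKM in samples labelled Ret null and 1.65, 3.799 and 4.66 FPKM in wild type. All but 1 of the samples labelled Ret null exceeded every wild-type sample, and the lowest value, in wild-type male 2, rested on about 36 implied fragments. The labelled null samples with Ret had 5.44, 5.10 and 5.74 FPKM, all above wild type. Those without Ret had 4.62, 7.11 and 6.24 FPKM. The rise at E14.5 was 0.60 (SE 0.17, adjusted p = 0.0390 in limma), and it did not pass without the libraries that held Ret, at 0.58 (SE 0.25, adjusted p = 0.161 in limma).

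By mean, Gpr20 stood at 9.64 ± 2.01 FPKM (SD, n = 5) at E10.5, 8.76 ± 2.19 FPKM (SD, n = 6) at E12.5 and 5.71 ± 0.881 FPKM (SD, n = 6) at E14.5 in gut labelled Ret null. Wild-type gut had 4.80 ± 1.68 FPKM (SD, n = 4) at E10.5, 8.53 ± 2.09 FPKM (SD, n = 5) at E12.5 and 3.54 ± 1.14 FPKM (SD, n = 6) at E14.5. The gap from wild type at E12.5 down to the Ret null label at E14.5 was larger than either SD, and no other neighbouring pair differed by more than the larger of its SDs.

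Etv1 encodes an ETS transcription factor that KIT signalling stabilises and that interstitial cells of Cajal need. At E10.5 Etv1 stood at 6.47 and 9.71 FPKM in females and 6.23, 6.39 and 6.14 FPKM in males labelled Ret null, against 5.14 and 2.65 FPKM in wild-type females and 5.28 and 6.64 FPKM in wild-type males. Only female 3, which held Ret, exceeded all wild-type samples. The difference of 0.49 (SE 0.17, adjusted p = 0.107 in limma) did not pass.

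At E12.5 Etv1 had lowest, median and highest values of 5.98, 6.78 and 8.30 FPKM in samples labelled Ret null, against 7.56, 7.88, 8.25, 12.1 and 7.94 FPKM in wild type. Of the 6 samples labelled Ret null, 4 lay below every wild-type sample, and the difference of -0.25 (95% interval -0.50 to 0.0012, adjusted p = 0.585 in limma) did not pass. At E14.5 the values were 6.90, 9.62 and 14.01 FPKM in samples labelled Ret null and 6.37, 9.33 and 9.90 FPKM in wild type, with a difference of 0.16 (SE 0.15, adjusted p = 0.455 in limma).

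At E14.5 Etv1 varied within the null label. The 3 samples without Ret had 6.90, 9.60 and 9.64 FPKM and the 3 with Ret 12.7, 8.83 and 14.01 FPKM, values that overlap through 8.83 FPKM. The samples without Ret differed from wild type by -0.11 (SE 0.13, adjusted p = 0.581 in limma). The summed level of 13 enteric neuron genes was 47.5 to 64.0 FPKM in the samples without Ret, 273 to 317 FPKM in those with Ret and 140 to 307 FPKM in wild type, and the part of neurons in the Etv1 values was not tested.

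Etv1 means were 6.99 ± 1.53 FPKM (SD, n = 5) at E10.5, 7.01 ± 0.854 FPKM (SD, n = 6) at E12.5 and 10.3 ± 2.62 FPKM (SD, n = 6) at E14.5 with the Ret null label. Wild-type means were 4.93 ± 1.66 FPKM (SD, n = 4) at E10.5, 8.76 ± 1.91 FPKM (SD, n = 5) at E12.5 and 8.96 ± 1.32 FPKM (SD, n = 6) at E14.5. With all 6 means ordered from high to low, only the last step, from the Ret null label at E10.5 down to wild type at E10.5, was larger than either SD.

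Kitl encodes the ligand of KIT, which is held on the membrane or shed. At E10.5 it stood at 8.32 and 6.33 FPKM in females and 7.54, 7.46 and 6.38 FPKM in males labelled Ret null, against 13.9 and 10.8 FPKM in wild-type females and 8.74 and 9.80 FPKM in wild-type males. Each sample labelled Ret null lay below each wild-type sample, as did those of 3.74% of all genes tested. Kitl fell by 0.51 on the log2 scale (SE 0.11, adjusted p = 0.0308 in limma), so receptor and ligand differed in opposite directions at E10.5.

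At E12.5 Kitl had lowest, median and highest values of 7.62, 9.39 and 14.1 FPKM in samples labelled Ret null, against 6.19, 8.12, 6.54, 7.55 and 7.05 FPKM in wild type. The difference had the other sign from that at E10.5, 0.42 (SE 0.13), but did not pass (adjusted p = 0.544 in limma). At E14.5 Kitl had 8.35, 12.3 and 14.01 FPKM in samples labelled Ret null and 8.32, 11.6 and 13.6 FPKM in wild type, a difference of 0.06 (95% interval -0.19 to 0.31, adjusted p = 0.748 in limma).

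By mean, Kitl was 7.21 ± 0.847 FPKM (SD, n = 5) at E10.5, 9.98 ± 2.39 FPKM (SD, n = 6) at E12.5 and 11.9 ± 1.98 FPKM (SD, n = 6) at E14.5 with the Ret null label. Wild-type gut had 10.8 ± 2.22 FPKM (SD, n = 4) at E10.5, 7.09 ± 0.772 FPKM (SD, n = 5) at E12.5 and 11.4 ± 1.84 FPKM (SD, n = 6) at E14.5. From the highest mean to the lowest, only the step from the Ret null label at E12.5 down to the Ret null label at E10.5 was larger than either SD.

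Counted together, 4 of the 5 genes passed at E10.5, with Kit, Ano1 and Gpr20 higher and Kitl lower in gut labelled Ret null. Of all 13165 genes tested at that stage 8.29% passed, 5.61% higher and 2.67% lower. At E12.5 none of the 5 passed in limma, at a background of 0.00759% (1 gene of 13182, with 1115 at an unadjusted p under 0.05), and of the 5 only Kitl had an unadjusted p under 0.05, at 0.0118. At E14.5 Kit, Ano1 and Gpr20 passed, all higher, where 15.7% of 13861 genes passed and 10.9% were higher.

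The split of all genes at E14.5 depended on scaling: 69.1% of the genes that passed were higher with FPKM as deposited (1504 higher and 671 lower) and 43.9% after scaling libraries by median ratios (711 higher and 910 lower). The sum of FPKM a library was 404022 to 497295 with the Ret null label and 448521 to 491231 in wild type. With scaling, the E14.5 changes of Kit and Ano1 were 0.39 (adjusted p = 0.0251 in limma) and 0.32 (adjusted p = 0.0133 in limma), still higher, and Gpr20 kept its sign at 0.55 without passing (adjusted p = 0.0552 in limma).

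The E10.5 result rests on few samples. All E10.5 females labelled Ret null held Ret, so leaving out the libraries with Ret leaves samples labelled male only, of which male 1 labelled Ret null had female RNA: Kit then differed by 0.36 (SE 0.15, adjusted p = 0.249), Ano1 by 0.32 (SE 0.18, adjusted p = 0.356), Gpr20 by 0.67 (SE 0.27, adjusted p = 0.230), Kitl by -0.34 (SE 0.12, adjusted p = 0.206) and Etv1 by 0.07 (SE 0.21, adjusted p = 0.882) in limma. None of the 5 passed there, where 0.522% of genes did. The comparison within samples labelled male in the fit of all E10.5 samples uses the same samples and has the same log2 changes. It is thus not a separate check, and none passed in it, at 0.106% of genes. Within samples labelled female at E10.5 Kit (0.71) and Ano1 (0.90) rose and Kitl fell (-0.68), at a background of 7.57%, but those labelled Ret null held Ret RNA at 4.74 to 5.76 FPKM and 1 of their 2 samples, female 3, had male RNA. With sex as labelled, the difference between the sexes in the genotype change passed for none of the 5 nor for any of the 13165 genes, of which 2459 had an unadjusted p under 0.05.

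At E12.5 none of the 5 passed without the library that held Ret either (background 0.259%). At E14.5 2 of 5, Kit and Ano1, passed without the 3 libraries that held Ret, where 8.61% of genes passed and 3.96% were higher. This rests on 3 samples labelled Ret null, 2 of which, males 2 and 3, differed by little more than counting noise. Kit passed under all 21 other settings tried, with log2 changes of 0.38 to 0.53, and so did Ano1, with 0.32 to 0.40. Gpr20 passed under 10 of the 21, with changes of 0.43 to 0.74 and adjusted p of 0.0300 to 0.161 in limma. Within 1 sex alone none of the 5 passed at E14.5, where 0.628% of genes passed in females and 0.0144% in males.

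**Figure D3:**
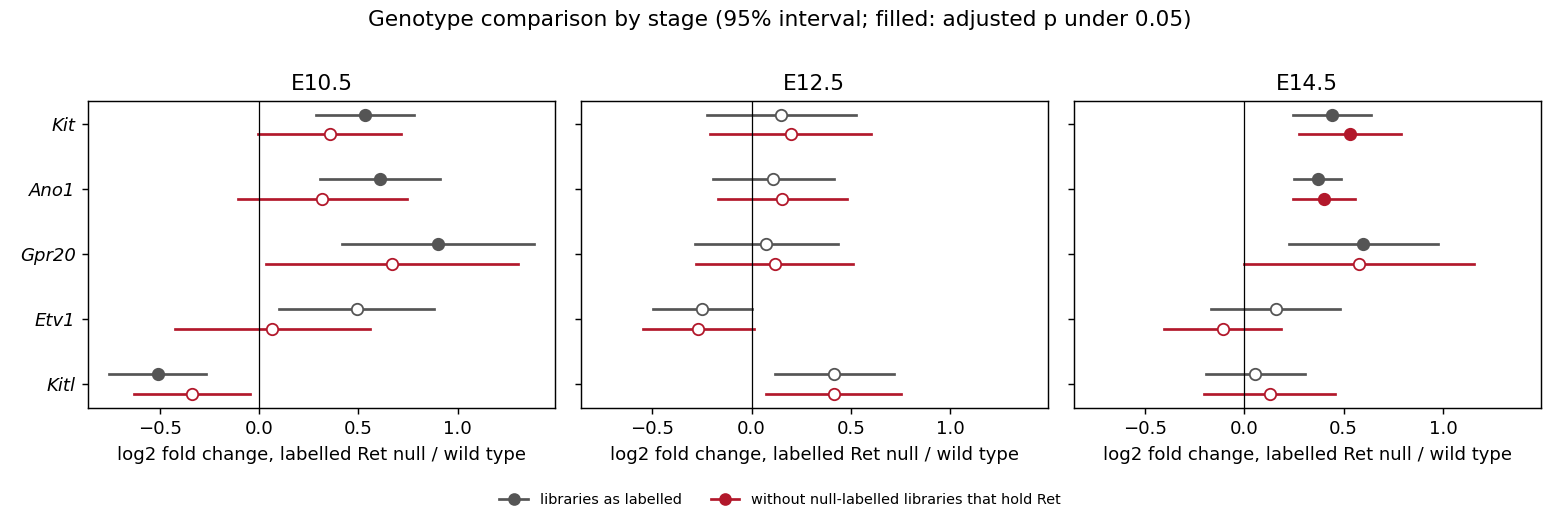
Log2 fold change of FPKM + 1 in gut labelled Ret null over wild type (horizontal axis) for the 5 genes at each stage, with the libraries as labelled (grey) and without the libraries labelled Ret null that held Ret (red); whiskers are 95% intervals and filled points had an adjusted p under 0.05. At E14.5 Kit and Ano1 are filled in both versions, and at E10.5 no gene is filled once those libraries are left out.

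Other gut tissue moved with the label at E10.5. As labelled, 5.61% of all genes tested at E10.5 were called higher, the share to set beside the as-labelled counts that follow. A list of 13 smooth muscle genes summed to 480 to 634 FPKM in samples labelled Ret null and 161 to 309 FPKM in wild type, and 10 of its 12 tested genes rose (median log2 change 1.37, against 0.0063 over all genes). The largest log2 changes in the list were those of Myh11 (2.58) and Actg2 (2.34), the myosin and actin of the muscle, Mylk (2.003), the kinase that starts contraction, and Cnn1 (1.86), an actin-binding protein. Without the libraries that held Ret, 2 of the 12 rose, with a median of 1.03, where 0.522% of genes passed. A list of 5 stomach-region genes summed to 16.7 to 140 FPKM in samples labelled Ret null and 2.98 to 44.9 FPKM in wild type, with 3 of 5 higher, and 4 of 5 (median log2 change 2.50) without the libraries that held Ret. The 7 epithelial genes summed to 141 to 224 FPKM in samples labelled Ret null and 95.6 to 289 FPKM in wild type, with 5 of 7 higher, and 3 of 7 (median 1.03) without those libraries. The implied depth was 6.72 to 10.9 M fragments with the Ret null label and 6.85 to 17.7 M fragments in wild type. The part of these in the changes of Kit, Ano1, Gpr20 and Kitl was not tested, and in bulk gut fewer cells of a type cannot be told apart from less RNA per cell.

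At E14.5 smooth muscle genes summed to 1061 to 1610 FPKM in samples labelled Ret null and 894 to 1699 FPKM in wild type, so these sums overlapped. Of 13 tested, 3 rose: Myocd (0.68), a coactivator of muscle genes, Synpo2 (0.58), an actin-binding protein, and Foxf1 (0.56), a mesenchymal transcription factor. Des (-0.53), the intermediate filament of muscle, fell. Of all genes 15.7% passed at E14.5 and 10.9% were higher. The list had a median of 0.09, against 0.04 over all genes. The stomach-region genes summed to 144 to 193 FPKM with the Ret null label and 10.51 to 310.0 FPKM in wild type. Red cell genes summed to 1862 to 4568 FPKM with the Ret null label and 3695 to 25730 FPKM in wild type. Liver genes summed to 45.0 to 155 FPKM and 61.3 to 2544 FPKM in the same order. Implied depth was 6.17 to 8.06 M and 4.86 to 6.76 M fragments. Genes at 1 FPKM or more numbered 13093 to 13297 and 13322 to 13644, without overlap. The part of these in the E14.5 changes was not tested.

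E12.5 wild-type male 2, which had the highest Kit and Ano1 of all libraries and the highest Etv1 of its stage, also had the highest smooth muscle sum of its stage, 1156 FPKM against 358 to 472 FPKM in the other wild-type samples and 430 to 957 FPKM in samples labelled Ret null. Its stomach-region genes summed to 2.75 FPKM, the lowest of the stage. Among E12.5 samples labelled Ret null, male 3 had both the highest Kit, 22.9 FPKM, and the highest smooth muscle sum, 957 FPKM. These are single samples, and a link between Kit and the smooth muscle sum was not tested.

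Kit is also a gene of mast cells, germ cells, melanoblasts and blood progenitors, whose marker lists were read in the same samples. At E14.5, 8 mast cell genes summed to 2.51 to 10.8 FPKM in samples labelled Ret null and 4.999 to 67.7 FPKM in wild type, where Fcer1a was at 0 throughout. Of 4 tested, Hdc, the histamine-forming enzyme, fell (-0.86), where 15.7% of all genes passed. The sum of 67.7 FPKM was that of wild-type female 3, whose Kit, 12.4 FPKM, was the second lowest of its group. At E10.5 the mast cell sums were 1.06 to 3.27 FPKM with the Ret null label and 1.45 to 2.09 FPKM in wild type, with Tpsab1 at 0.

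Germ cell genes (6) summed to 3.13 to 16.8 FPKM in E10.5 samples labelled Ret null and 2.80 to 11.1 FPKM in wild type, where Nanos3, an RNA-binding protein of germ cells, rose (0.59). At E12.5 they summed to 2.72, 2.82, 8.19, 19.4, 20.3 and 21.7 FPKM in the 6 samples labelled Ret null and 2.35 to 3.08 FPKM in wild type, and none passed. In 4 of the 6 the sum lay above every wild-type sample, while male 3, with the highest Kit of the 6, had the lowest sum. At E14.5 they summed to 1.84 to 3.06 FPKM in samples labelled Ret null and 1.90 to 3.75 FPKM in wild type, with Dppa3 at 0 in both groups. Melanoblast genes (5) summed to 0.486 to 1.481 FPKM over all groups and none reached the level needed for a test. Blood progenitor genes (6) summed to 7.92 to 23.1 FPKM with the Ret null label and 18.5 to 35.7 FPKM in wild type at E10.5, and to 7.14 to 11.7 FPKM with the Ret null label and 9.93 to 55.6 FPKM in wild type at E14.5, and none of them passed at either stage. At E14.5 the highest mast cell and blood progenitor sums were in wild type. The part of these cells in the Kit values was not tested.

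The 5 genes were also compared between stages, in 1 limma model of all groups. In wild type from E10.5 to E12.5, Etv1 rose by 0.73 (SE 0.17, adjusted p = 0.0137) and Ano1 by 0.44 (SE 0.13, adjusted p = 0.0460), and Kitl fell by 0.53 (SE 0.14, adjusted p = 0.0313). That is 3 of 5, at a background of 4.57%. Kit (0.46, adjusted p = 0.0807) and Gpr20 (0.70, adjusted p = 0.0619) did not pass. The E10.5 wild-type samples serve in both these changes and the E10.5 genotype comparison, so the 2 are not independent.

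In gut labelled Ret null none of the 5 passed between E10.5 and E12.5, at a background of 3.36% (481 of 14321 genes, with 2755 at an unadjusted p under 0.05). Kitl had 0.40 (SE 0.13, adjusted p = 0.0869) and the other 4 lay between -0.12 and 0.07. The change with stage itself differed by genotype for Kitl alone of the 5, by 0.93 on the log2 scale (SE 0.19, adjusted p = 0.0156; background 1.34%): Kitl had 0.40 with the Ret null label and -0.53 in wild type. Leaving out the libraries labelled Ret null that held Ret removes all E10.5 females with that label. The difference then compares samples labelled male only, and E10.5 male 1 labelled Ret null had female RNA. It was 0.64 and did not pass (adjusted p = 0.682 in limma), a value not taken over the same sexes as the 0.93.

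From E12.5 to E14.5 in gut labelled Ret null, Etv1 rose by 0.47 (SE 0.15, adjusted p = 0.0151) and Gpr20 fell by 0.52 (SE 0.18, adjusted p = 0.0296), 2 of 5 at a background of 35%. In wild type Gpr20 fell by 1.05 (SE 0.19, adjusted p = 7.59e-05), Ano1 fell by 0.45 (SE 0.12, adjusted p = 0.00196) and Kitl rose by 0.61 (SE 0.13, adjusted p = 0.00032). That is 3 of 5 at a background of 58.9%, close to the share of genes at large. Kit did not pass in either, with 0.02 (adjusted p = 0.910) with the Ret null label and -0.27 (adjusted p = 0.0884) in wild type.

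None of the 5 passed for a difference by genotype in the change from E12.5 to E14.5, where 17.4% of genes did (2489 of 14321, with 4844 at an unadjusted p under 0.05). Depth moved with stage, with 4.86 to 8.06 M implied fragments at E14.5 and 17.4 to 40.9 M implied fragments at E12.5. Median-ratio scaling changed the split of all genes from 66.4 to 50% higher for the change to E14.5 with the Ret null label and from 64.4 to 50% higher for its difference by genotype.

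Genes other than the 5 that act in interstitial cells of Cajal or pass signals to them were read as a list of 14, all tested at each stage. At E10.5 6 rose and 1 fell, with a median log2 change of 0.49 against 0.0063 over all genes, where 5.61% of all genes were higher and 2.67% lower. Cckar, the cholecystokinin A receptor, had 2.47 to 3.20 FPKM in the 5 samples labelled Ret null and 0.0307 to 0.876 FPKM in the 4 wild-type samples, a rise of 1.43 (adjusted p = 0.00337 in limma). Genes were tested if they reached 1 FPKM in 3 or more samples. Cckar met this only through the samples labelled Ret null, so a fall was hardly open to it. Chrm2, the muscarinic M2 receptor, had 3.85 to 9.70 FPKM with the Ret null label and 0.423 to 2.88 FPKM in wild type, a rise of 1.42 (adjusted p = 0.0404 in limma).

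The remaining rises at E10.5 include subunits and receptors that take up nerve signals. Gucy1b3, the beta subunit of the guanylyl cyclase that senses nitric oxide, had 25.5 to 34.8 FPKM in samples labelled Ret null and 8.02 to 18.5 FPKM in wild type, a rise of 1.03. Tacr1, the substance P receptor and a known marker of these cells in adult gut, rose by 0.93, where it stood at 0.717 to 1.61 FPKM with the null label and 0.0496 to 0.245 FPKM in wild type. Like Cckar, it was tested only because of its level in samples labelled Ret null. The other 2 that rose, named after their values were seen, were Vipr2 (0.73), a receptor for vasoactive intestinal peptide, and Cacna1h (0.54), a T-type calcium channel. Gja1, the gap junction protein connexin 43, named after its values were seen because no other gene of the list was called lower, fell by 0.37. Itpr1 was not called but was also lower, at 3.57 to 5.08 FPKM with the Ret null label and 5.18 to 8.31 FPKM in wild type. These ranges did not overlap, as was so for 3.74% of all genes in that direction.

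None of the 14 passed at E12.5. At E14.5 6 rose and none fell, with a median of 0.29 against 0.04 over all genes, where 10.9% of genes were called higher. Cckar, the largest rise of the list at E10.5, had 4.72 to 9.69 FPKM with the Ret null label and 4.97 to 22.2 FPKM in wild type at E14.5, a difference of -0.70 that did not pass (adjusted p = 0.110 in limma), and Gja1 had a difference of -0.21 (adjusted p = 0.482 in limma). Chrm2 had 4.54 to 10.48 FPKM in the 6 samples labelled Ret null and 3.60 to 6.76 FPKM in the 6 wild-type samples, a rise of 0.64 (adjusted p = 0.0134 in limma). Vipr2 had 4.26 to 5.57 FPKM with the Ret null label and 1.72 to 3.88 FPKM in wild type, a rise of 0.61 (adjusted p = 0.0216 in limma). Its groups did not overlap, as was so for 4.82% of all genes in that direction. Prkg1, the kinase that acts downstream of cyclic GMP, rose by 0.55 and Gucy1b3 by 0.44, at 27.0 to 38.4 FPKM with the null label and 21.8 to 27.1 FPKM in wild type.

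Without the libraries labelled Ret null that held Ret, 3 of the 14 rose at E14.5, Chrm2 (0.71, adjusted p = 0.0345), Prkg1 (0.59, adjusted p = 0.0425) and Gucy1b3 (0.44, adjusted p = 0.0118) in limma, with a list median of 0.32 and 3.96% of all genes higher. At E10.5 none did, with a list median of 0.38 (0.522% of all genes passed in either direction). Several of the 14 are also expressed by smooth muscle, so the list is not specific to interstitial cells of Cajal.

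For lists of other tissues the calls depended on the libraries that held Ret, above all for neurons. With every library as labelled at E14.5, none of 13 enteric neuron genes and none of 8 crest and glia genes passed, with medians of -1.04 and -0.36. Without the libraries that held Ret, 12 of the 13 enteric neuron genes fell (median -2.29) and 4 of the 8 crest and glia genes fell (median -0.47), where 8.61% of genes passed. Those that fell include Tubb3 (-3.71, adjusted p = 0.00322 in limma), a neuronal tubulin, and Prph (-3.01, adjusted p = 0.00576 in limma), a neuronal intermediate filament. Among crest and glia genes, Sox10 (-1.65), a transcription factor of crest cells and glia, Foxd3 (-0.85), Ednrb (-0.54) and Fabp7 fell.

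At E12.5 no gene of any list passed with the libraries as labelled, and without the library that held Ret 5 of 13 enteric neuron genes fell (median -1.74) and 2 of 7 tested crest and glia genes fell, Sox10 (-1.86) and Foxd3 (-1.33), where 0.259% of genes passed. At E10.5 1 of 13 enteric neuron genes and 2 of 7 tested crest and glia genes rose as labelled (medians 0.08 and 0.20), where 5.61% of genes were higher. Once the libraries that held Ret were left out none of either list rose and 1 enteric neuron gene, Gal, the neuropeptide galanin, fell (-2.08), with medians of -1.42 and -0.33.

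As labelled at E10.5, 2 of 6 red cell entries fell and none of the endothelial, mesothelial, pancreas and liver genes passed. The E10.5 pancreas sums still did not overlap, at 13.2 to 17.3 FPKM with the Ret null label and 3.39 to 10.8 FPKM in wild type. Nor did the mesothelial sums, at 44.9 to 54.7 FPKM and 58.2 to 62.3 FPKM in the same order. The endothelial and liver sums overlapped. Of single genes at E10.5, 5.25% lay wholly above wild type and 3.74% wholly below. The part of these tissues in the E10.5 changes was not tested. Of all genes 8.29% passed at E10.5 and 15.7% at E14.5. At E14.5, 1 of 7 epithelial and 1 of 5 stomach-region genes rose, 3 of 6 red cell entries, 2 of 5 pancreas genes and 1 of 5 liver genes fell, and none of the endothelial and mesothelial genes passed. None of these calls at either stage remained without the libraries that held Ret.

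**Figure D4:**
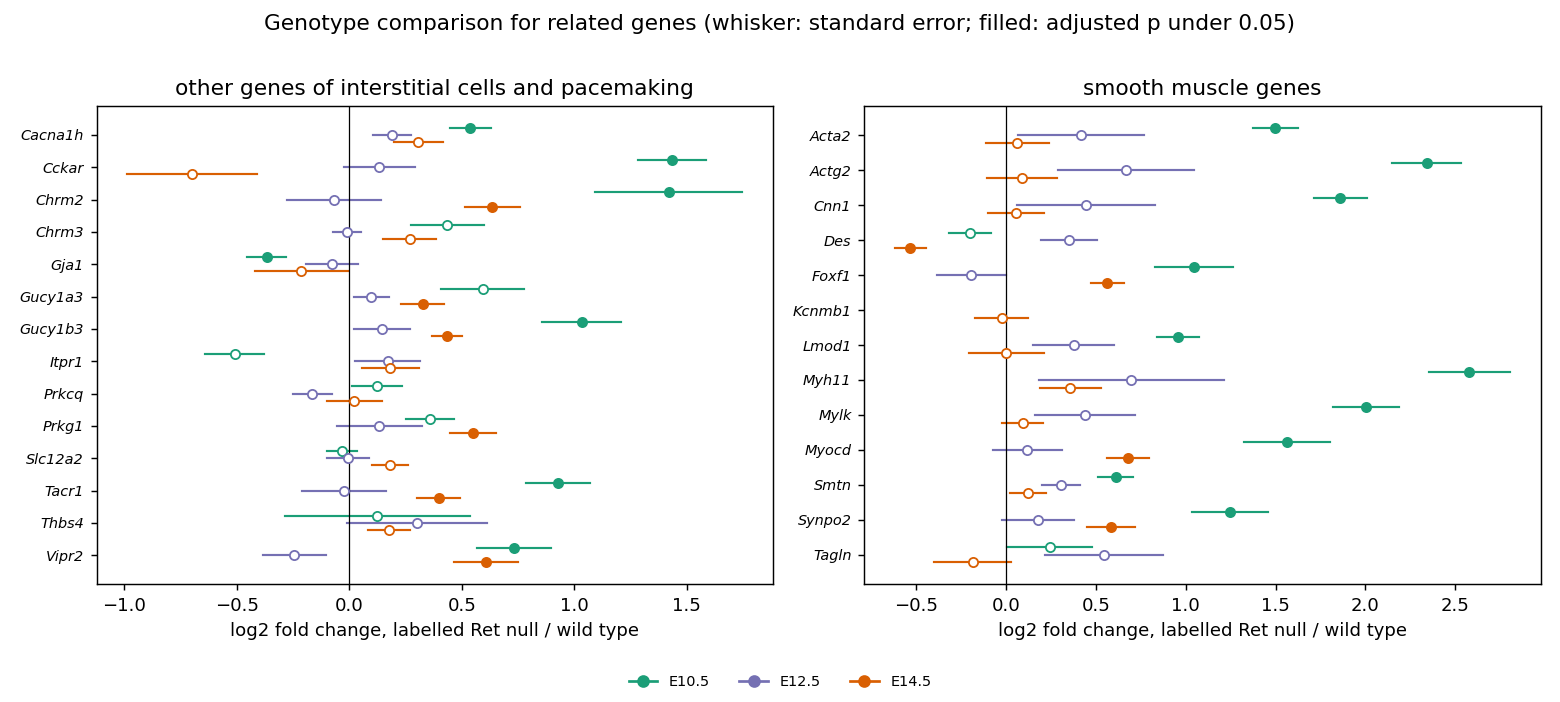
Log2 fold change of FPKM + 1 in gut labelled Ret null over wild type for 14 other genes of interstitial cells and pacemaking (left) and 13 smooth muscle genes (right), coloured by stage; whiskers are standard errors and filled points had an adjusted p under 0.05. Both panels shift to higher values at E10.5 (medians 0.49 and 1.37), while at E14.5 the medians were 0.29 and 0.09.

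Signalling downstream of KIT was read as a list of 22 adaptors, kinases, phosphatases and targets, 21 of them tested. At E10.5 Socs1, a suppressor of cytokine signalling, rose (0.60, adjusted p = 0.0262 in limma) and Cbl, a ubiquitin ligase that turns over the receptor, fell (-1.35, adjusted p = 0.0344 in limma). The list median was -0.02. These are 2 of 21, where 8.29% of all genes passed, so the list was called about as often as genes at large. Cbl was uneven within groups, at 0.664 to 4.14 FPKM in samples labelled Ret null and 4.55 to 11.1 FPKM in wild type. At E12.5 none passed.

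At E14.5 Plcg1, a phospholipase that binds the receptor, rose (0.31, adjusted p = 0.0302 in limma), at 21.95 to 31.5 FPKM in samples labelled Ret null and 20.1 to 25.2 FPKM in wild type. Sos1, an exchange factor for RAS, rose by 0.28 and Ptpn6, a phosphatase of blood cells that acts against KIT, fell by 0.28, with a list median of -0.01. Of all genes 15.7% passed at that stage, so the list was called about as often as genes at large. Without the libraries that held Ret, 3 rose (Plcg1 by 0.45, Spred1, an inhibitor of RAS signalling, by 0.42 and Sos1 by 0.36), where 3.96% of all genes were higher. At E10.5 none passed without them, where 0.522% of all genes did.

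Relatives of Etv1 and Ano1 were read in the same way. Etv4 and Etv5, the other 2 members of the PEA3 group of ETS factors, did not pass at any stage, and Etv4 stood at 5.50 to 8.04 FPKM in E10.5 samples labelled Ret null and 4.53 to 8.15 FPKM in wild type. Cic, the repressor of that group, rose at E10.5 (0.50, adjusted p = 0.0170 in limma). Of the 9 other anoctamins 5 were tested at E10.5, where Ano9 (0.62, adjusted p = 0.0481 in limma) and Ano8 (0.31) rose. Of all genes 5.61% were higher at that stage. Ano9 stood at 1.06 to 2.27 FPKM with the Ret null label and 0.479 to 0.839 FPKM in wild type. It thus reached the level needed for a test only with the null label. Ano6, a lipid scramblase, stood at 20.6 to 24.1 FPKM in E14.5 samples labelled Ret null and 18.5 to 22.01 FPKM in wild type and did not pass.

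A further list held markers of the second interstitial cell type of the gut wall, which carries PDGFRA. Of its 4 tested genes, P2ry1, a purine receptor, rose at E10.5 (0.67, adjusted p = 0.0377 in limma), where 8.29% of all genes passed. At E14.5 Pdgfra, the receptor that names the cells, rose (0.56, adjusted p = 0.0297 in limma) and Cd34, a surface sialomucin, fell (-0.47, adjusted p = 0.0374 in limma), where 15.7% of all genes passed. With the libraries that held Ret left out, Pdgfra rose by 0.79 at E14.5 (adjusted p = 0.0358 in limma), where 8.61% of all genes passed. Hdc and Cd34 at E14.5 and Nanos3, Cic, Ano8, Ano9 and P2ry1 at E10.5 did not pass without them (adjusted p of 0.0769 to 0.363 in limma). The PDGFRA list summed to 64.5 to 85.1 FPKM in E14.5 samples labelled Ret null and 53.5 to 83.9 FPKM in wild type.

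The genes most like each of the 5 were found by Pearson's r over the 12 group means of log2(FPKM + 1), among 14316 genes, as a description over points that share stage and depth. For Kit they were Syne1 (0.952), a nuclear envelope protein of muscle, Klhl38 (0.944) and Synpo2 (0.943), and for Ano1 Soga2 (0.952), Fendrr (0.948), a noncoding RNA next to Foxf1, and Inpp4a (0.946). For Gpr20 they were Fgd6 (0.976), Gdnf (0.949), the ligand that acts through RET, and 3110056K07Rik (0.948). Etv1 was most like Spry2 (0.966), an inhibitor of receptor tyrosine kinase signalling, Stard13 (0.955) and Ednrb (0.954), the endothelin receptor of crest cells. Kitl was most like Nckap1l (0.922), Dock2 (0.909), both genes of blood cells, and Trim21 (0.897).

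Levels of 3 of these genes by group follow. Each was picked because its group means ran with those of a member, so a difference by label like that of the member is not a separate result. Gdnf stood at 9.26 to 14.46 FPKM in E10.5 samples labelled Ret null and 2.11 to 6.85 FPKM in wild type. At E14.5 it stood at 6.50 to 8.91 FPKM with the Ret null label and 1.89 to 5.08 FPKM in wild type. The groups did not overlap at either stage, as was so for 5.25% of all genes in that direction at E10.5 and 4.82% at E14.5. Synpo2, also in the smooth muscle list, stood at 15.3 to 22.4 FPKM in samples labelled Ret null and 3.03 to 10.8 FPKM in wild type at E10.5. Dock2 stayed near or under 1 FPKM, at 0.734 to 1.12 FPKM in E14.5 samples labelled Ret null and 0.607 to 1.195 FPKM in wild type.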

How the data were processed

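The authors deposited gene-level FPKM with an interval, per the file headers, and the submitters' processing notes name Picard, TopHat2, Cufflinks and Cuffdiff with mm10; the notes give no version, setting or scaling between libraries. Implied fragments come from the interval widths and cover counting error only. In E10.5 females labelled Ret null 0% of FPKM lay outside their own interval, against 3.68 to 16.9% elsewhere, so those files differ in form. The 5 members and the 19 gene lists were chosen with earlier results of these data known. Replicate pairs were averaged where their spread was no more than 1.1 times the counting noise and no more than 1% of genes lay beyond 3 SD, over genes with 50 to 2000 implied fragments. log2(FPKM + 1) was fitted with limma 3.58.1 (R 4.3.3, empirical Bayes with a mean-variance trend) to genes that reached 1 FPKM in 3 or more samples; all 5 members passed this filter in each fit. Each stage was fitted alone with genotype by sex means, and stages in 1 fit of 12 groups. Tests were two-sided, with Benjamini-Hochberg adjustment over all genes and a threshold of 0.05; the fit was checked on simulated data. Named genes were the 5 members, Ret, up to 4 called genes of each list with the largest change and the 3 genes most like each member. Others were named after their values were seen (Cacna1h, Gja1, Itpr1, Etv4, Etv5, Ano6 and, at E10.5, Vipr2). Alternatives changed the pseudocount, filter, scaling, averaging, sex term or block, or left out libraries. Figures used Python 3.11.15 and matplotlib 3.10.9. Some genes that this naming rule covers are not reported here.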

Additional observations from a re-analysis of the deposited data

Results flagged for a closer look

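Each of the 5 genes was examined in each stage and genotype with the sexes pooled, which made 30 sets. In 4 of the 30 sets 1 sample stood far from the rest. Chance gives about 1 in 20 for a single set. The sets share samples, and E12.5 wild-type male 2 was flagged for both Kit and Etv1, so the count cannot be held against that rate. Kit was 27.9 FPKM in E12.5 wild-type male 2 against 13.7 to 16.5 FPKM in the other 4 samples, and Etv1 was 12.1 FPKM in the same sample against 7.56 to 8.25 FPKM. Etv1 was 9.71 FPKM in E10.5 female 3 labelled Ret null, which held Ret, against 6.14 to 6.47 FPKM in the other 4 samples. It was 6.37 FPKM in E14.5 wild-type female 1 against 8.98 to 9.90 FPKM in the other 5. The change of Kitl from E10.5 to E12.5 differed by genotype by 0.93 on the log2 scale (0.40 with the Ret null label and -0.53 in wild type, adjusted p = 0.0156 in limma).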

How the results depend on the processing

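Of 295 repeats of the 15 single-gene genotype results, 239 kept direction and side of the threshold, 55 no longer passed, 1 newly passed and 0 reversed. At E14.5 the count of 3 of 5 genes moved by no more than 1 gene. At E10.5 the count of 4 became 0 without a filter on low values, 0 without the libraries labelled Ret null that held Ret, 0 without those whose sex RNA went against the label, 0 with sex left out and 2 with a replicate block (Kit and Kitl); leaving out 1 sample at a time gave 0 to 4, with 0 without male 2 or male 3 labelled Ret null or wild-type males 3 and 4, and 1 without male 1 labelled Ret null, wild-type female 3 or wild-type male 5. From E10.5 to E12.5 in wild type 3 became 5 with every library counted and 0 without libraries of contradicted sex, with 0 to 3 on leaving out 1 sample (0 without E10.5 males 3 and 4 or E12.5 females 1 and 2). In gut labelled Ret null 0 became 1 with every library counted and 1 with a replicate block, and 0 to 1 on leaving out 1 sample. The genotype difference in that change went from 1 to 0 without the libraries that held Ret and to 0 without those of contradicted sex, with 0 to 2 on leaving out 1 sample (0 without E10.5 female 3 labelled Ret null, E10.5 wild-type male 5 or E12.5 wild-type females 1 and 2). Without the libraries that held Ret, results that use E10.5 gut labelled Ret null compare samples labelled male only. From E12.5 to E14.5 with the Ret null label 2 became 0 without the libraries that held Ret and 0 to 3 on leaving out 1 sample (0 without E14.5 male 1), and its difference by genotype stayed at 0 to 1. The cause was not tested.

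Same-numbered samples deviated with r of -0.289 to 0.330 over 16 pairs, 4 of them over 0.1, so the numbers were not taken to pair samples. With the replicate block at E14.5 Kit (adjusted p = 0.0296) and Ano1 (adjusted p = 0.0248) passed in limma and Gpr20 (adjusted p = 0.0688) did not.

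Counts over all genes that moved by over 1.5 times were as follows. At E10.5, 1091 became 625 without a filter, 3774 with every library counted, 68 without libraries that held Ret, 184 without those of contradicted sex and 326 with sex left out, and 179 to 1268 on leaving out 1 sample. The E10.5 difference between sexes went from 0 to 1 with a pseudocount of 0.1, 1 without a filter, 1917 with every library, 688 with the replicate block and 9 without contradicted sex. At E12.5, 1 became 34 without the library that held Ret, 2 without contradicted sex and 0 with a stricter filter, every library or the block. At E14.5, 2175 became 1122 with the block and 1182 without libraries that held Ret, and 669 to 3554 on leaving out 1 sample. From E10.5 to E12.5, wild type went from 654 to 1829 with every library and 264 without contradicted sex, the Ret null label from 481 to 1405 with every library, 1254 with the block, 13 without libraries that held Ret and 271 without contradicted sex, and their difference from 192 to 118 with a stricter filter, 769 with every library, 1 without libraries that held Ret and 5 without contradicted sex. In the counts without libraries that held Ret, those that use E10.5 gut labelled Ret null (68 at E10.5, and 13 and 1 from E10.5 to E12.5) compare samples labelled male only. From E12.5 to E14.5, 5007 with the Ret null label became 3331 without libraries that held Ret, and 2489 for the difference became 1473 without contradicted sex.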
